A study of Mus musculus with 6 samples.

Results

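Genes of fatty acid oxidation, storage and synthesis, with the peroxisome proliferator-activated receptors (PPARs) that regulate many of them, were examined in RNA-seq of sorted liver cells after sham surgery or ischemia and reperfusion (I/R). The members were 37 genes chosen by symbol, and all 37 were found, each under 1 identifier, among the 22027 genes of the deposited table. All 37 also passed the filter on low values, a mean of at least 10 normalised counts over the libraries, which 13434 genes passed. The study compared 3 sham libraries with 3 libraries taken at day 3 after I/R, in which the blood supply of the liver is cut off for a time and then let back in. Sham and I/R mice alike were IL7-GFP reporter mice, which make green fluorescent protein under control of interleukin 7. Each library used 20000 to 50000 cells sorted as liver lymphatic endothelial cells, with ribosomal RNA removed before library construction. In the deposited table every library is also labelled GFP plus. No label states age, the sham time point or which animals went into a library, so the p-values below reflect the spread among libraries alone, which may be technical.

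The label was checked against marker genes. Recovered whole counts per library ranged from 6297308 to 17086746. Lymphatic markers were above 0 in every library, for 8 of 8 genes, and their summed level ran from 8605 to 30646 normalised counts in sham and from 27723 to 44734 in I/R libraries. Kupffer cell and macrophage markers summed to more, 263970 to 292586 in sham and 200094 to 316752 in I/R libraries. Hepatocyte markers summed to 51152 to 88874 in sham and 59016 to 74632 in I/R libraries over 14 genes. Monocyte and neutrophil markers, of which 3 of 10 were at 0 in at least 1 library, summed to 1967 to 2278 in sham and 2733 to 3531 in I/R libraries, without overlap. No marker passed the test between the groups. The libraries therefore held transcripts of several liver cell types, and a lower value of a gene can mean fewer cells of a type or less RNA per cell, which cannot be told apart here. Sham library 3 stood apart with the lowest lymphatic sum, and values without it are given for Fabp4, Fasn, Scd1, Plin2, Lipe, Echs1 and Hadh.

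Fatty acids are activated to acyl-CoA by long-chain acyl-CoA synthetases, carried into mitochondria by the carnitine shuttle and shortened there in repeated turns of beta-oxidation, while very long and branched chains are first shortened in peroxisomes. Surplus fatty acid is stored as triglyceride in lipid droplets, which lipases empty again. Fatty acid synthase and stearoyl-CoA desaturase make new fatty acids under control of the SREBP-1 factor. PPAR alpha, delta and gamma are nuclear receptors that bind fatty acids and switch on genes of oxidation and storage, and both endothelial cells and macrophages of the liver use these pathways besides hepatocytes.

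Promoter sequences are shown for a few members that carry the results below, to show the letters of a PPAR motif, of the promoter of a lipogenic gene and of a start shared by a pair of genes. They come from RefSeq on GRCm38.p6, span 250 bases before to 50 bases after the annotated start, and were found for 31 of the 37 genes in 35 windows. PPARs bind a direct repeat of 6 bases with a 1 base gap, searched on both strands as AGGNCA, any base, AGGNCA. It was found in 1 of the 35 windows, that of the fatty acid binding protein gene Fabp1, and in 0.381% of all 32851 windows of this length. The shorter half-site AGGTCA, which this motif can contain, was in 8 of the 35 windows and in 16.3% of all windows. In the Fabp1 window (chr6:71199629-71199928, plus strand) the capitals mark the match, which lies on the minus strand with its first base at position -67 from the start.
Fabp1: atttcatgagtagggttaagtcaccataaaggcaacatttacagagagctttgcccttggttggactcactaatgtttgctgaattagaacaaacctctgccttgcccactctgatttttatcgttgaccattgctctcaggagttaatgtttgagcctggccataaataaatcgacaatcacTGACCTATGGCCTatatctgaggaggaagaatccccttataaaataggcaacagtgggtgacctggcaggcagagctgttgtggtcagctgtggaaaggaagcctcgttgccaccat
In the window of the fatty acid synthase gene Fasn (chr11:120824498-120824797, minus strand) the capitals mark CCAAT boxes, the site of the factor NF-Y. The motif was searched as CCAAT on both strands, and 2 of its matches here share their middle letters. It occurred in 15 of the 35 windows and in 37.4% of all windows. The core of the sterol regulatory element that SREBP-1 binds, searched on both strands as TCAC, any base, CCAC, had no match in the Fasn window. It was in 2 of the 35 windows, those of Acsl1 and Ehhadh, and in 1.24% of all windows.
Fasn: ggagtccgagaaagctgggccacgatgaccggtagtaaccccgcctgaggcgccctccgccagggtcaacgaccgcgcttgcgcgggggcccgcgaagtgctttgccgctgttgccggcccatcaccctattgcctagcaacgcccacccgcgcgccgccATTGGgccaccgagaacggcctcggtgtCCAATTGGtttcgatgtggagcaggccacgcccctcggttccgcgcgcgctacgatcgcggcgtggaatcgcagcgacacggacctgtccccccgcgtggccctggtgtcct
The genes Hadha and Hadhb encode the alpha and beta subunits of the mitochondrial trifunctional protein and start back to back, with 85 bases between their gene bodies. The Hadhb window (chr5:30155003-30155302, plus strand) covers this gap, and the capitals mark GC boxes, searched as GGGCGG on both strands. They were in 24 of the 35 windows and in 35.7% of all windows.
Hadhb: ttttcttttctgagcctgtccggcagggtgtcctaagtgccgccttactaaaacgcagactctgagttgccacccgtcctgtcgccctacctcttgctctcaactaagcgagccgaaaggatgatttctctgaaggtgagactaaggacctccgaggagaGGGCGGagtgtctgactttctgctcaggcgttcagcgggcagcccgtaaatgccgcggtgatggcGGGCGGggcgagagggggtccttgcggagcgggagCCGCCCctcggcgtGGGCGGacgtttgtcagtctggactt
A match is a description of the letters only.

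No member changed past the threshold. limma, a linear model of log2(normalised count + 1) with p-values adjusted over all 13434 genes, called 0 of the 37 members higher and 0 lower at an adjusted p under 0.05. Over all genes it called 4 higher, or 0.0298%, and 0 lower, or 0%. The lowest adjusted p among the members was 0.801, that of Fabp4. At an unadjusted p under 0.05 limma had 1 member higher, Fabp4, against 2.96% of all genes, and 2 lower, Fasn and Scd1 (5.41% of the members), against 1.48% of all genes. In either direction these were 3 members beside 4.44% of all genes. Over all genes there were 397 higher and 199 lower at that p, and 490 and 130 with equal library totals. edgeR and DESeq2 on the recovered counts also called 0 members after adjustment, where edgeR called 0.00744% of all genes higher and 0% lower and DESeq2 0.21% higher and 0.0421% lower. The depth allowed modest precision, as 31 of the 37 members had at least 100 counts in every library.

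For most members the estimated difference was small. The log2 fold change of I/R over sham was under 0.25 in size for 23 of 37 members, or 62.2%, beside 53.2% of all genes tested. It was positive for 14 members, or 37.8%, beside 52.1% of all genes, and negative for 23, or 62.2%, beside 47.9% of all genes. The median over the members was -0.11 and that over all genes 0.02. The members' median was -0.20 without sham library 2, -0.00063 without sham library 3 and -0.015 without I/R library 1, so single libraries set its size.

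**Figure D1:**
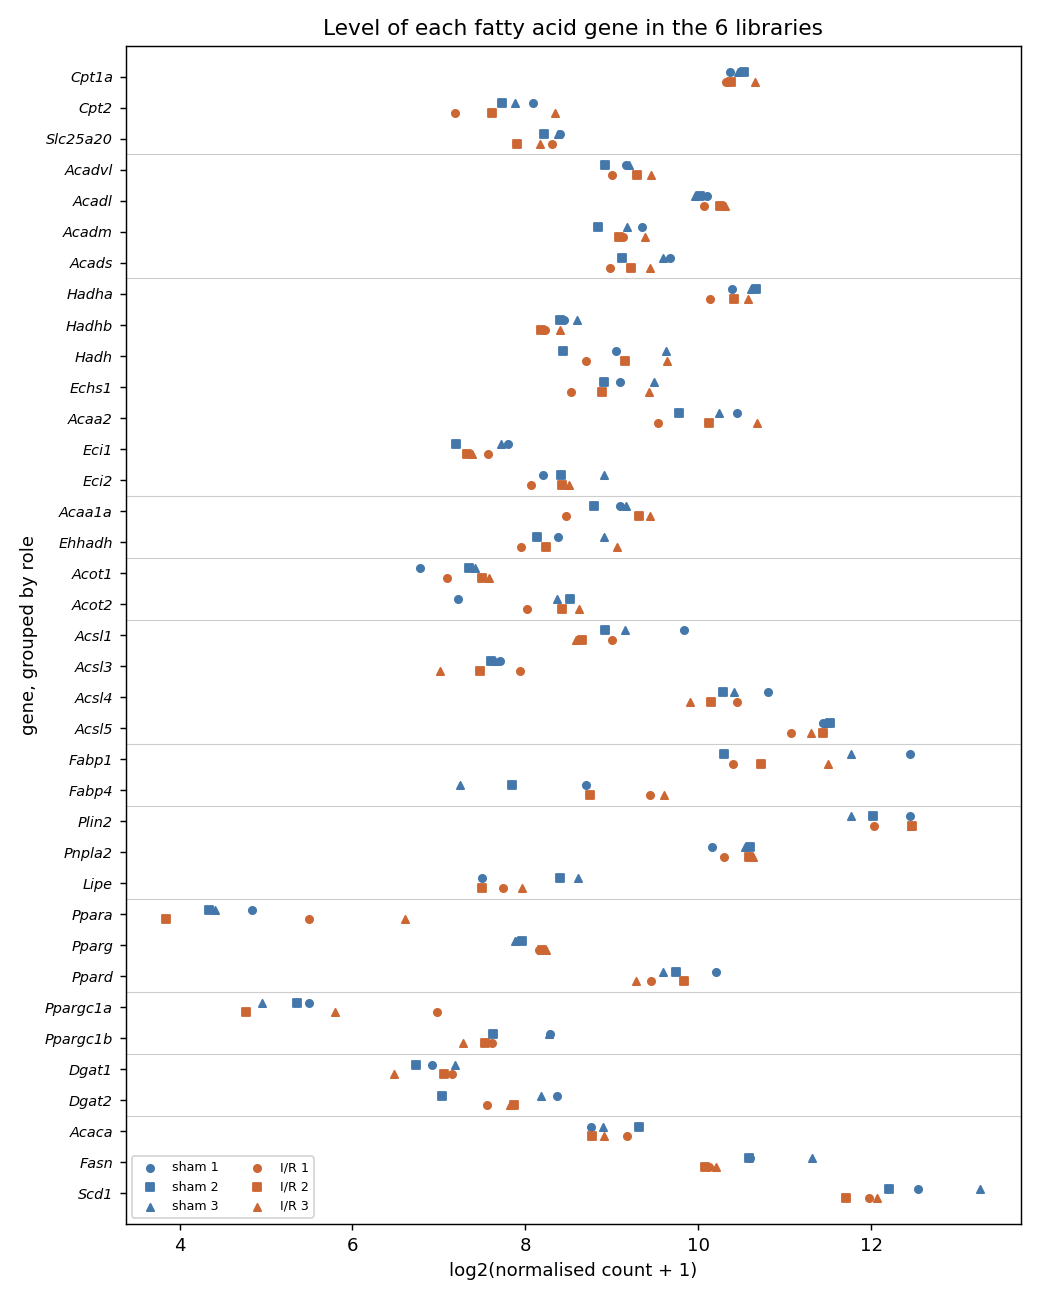
Level of the 37 genes as log2(normalised count + 1) on the horizontal axis, with genes grouped by role on the vertical axis; blue symbols are the 3 sham and orange symbols the 3 I/R libraries, with a shape for each replicate number. For 31 of the 37 genes the blue and orange symbols interleave, and Scd1, Plin2, Fabp1 and Acsl5 sit farthest to the right.

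The levels of the members spanned a wide range. Per kb of the principal transcript, which removes the effect of gene length, Fabp1, the fatty acid binding protein of liver, was highest with a mean of 4899 normalised counts per kb and rank 136 among all genes. Plin2, the gene of the droplet coat protein perilipin 2, followed with 2533 per kb and Scd1, which encodes stearoyl-CoA desaturase, with 1108 per kb. The lipase gene Pnpla2 had 792 per kb and Acaa2, the thiolase of mitochondrial beta-oxidation, 767 per kb. At the low end were Ppargc1a with 8.23 per kb and Ppara with 10.8 per kb. When the length of all annotated exons was used in place of the principal transcript, Fabp1, Plin2 and Scd1 kept the first 3 places in this order.

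The groups overlapped for all 3 genes of the carnitine shuttle. Cpt1a, whose product carries out the rate-controlling step of entry into mitochondria, had normalised counts of 1323, 1473 and 1406 in sham libraries 1 to 3 and 1283, 1327 and 1618 in I/R libraries 1 to 3. The groups overlapped and their means nearly coincided, at 1401 ± 75.2 and 1409 ± 182 (SD, n = 3 each). On the log2 scale the fold change was 0.0019 with a 95% interval of -0.37 to 0.38. Cpt2, the inner membrane enzyme of the shuttle, had a log2 fold change of -0.18 and Slc25a20, the carnitine carrier, -0.20, both with overlapping groups.

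Estimated differences of the mitochondrial beta-oxidation enzymes were small, but their intervals were wide. Of the 14 genes of the shuttle and the mitochondrial spiral together, 13 had a log2 fold change under 0.25 in size, 5 were positive and 9 negative, and the values ran from -0.25 to 0.18. The first step is taken by acyl-CoA dehydrogenases that differ in chain length. Acadl, for long chains, had a log2 fold change of 0.18, Acadvl, for very long chains, 0.15, Acadm, for medium chains, 0.08, and Acads, for short chains, -0.25. Of the later steps, the hydratase gene Echs1 had -0.21, the dehydrogenase gene Hadh 0.13, the thiolase gene Acaa2 -0.04, and the isomerase genes Eci1 and Eci2 -0.15 and -0.18. The 95% interval ran from -0.59 to 0.84 for Hadh, from -0.68 to 0.59 for Acaa2 and from -0.88 to 0.51 for Cpt2. These 3 genes varied 2.23 to 2.32 times between the lowest and highest library. Without sham library 3 the value was 0.42 for Hadh and -0.052 for Echs1. Of the exon bases of Acadvl, 42.85% overlap the gene Dvl2 on the opposite strand, and whether strand was used in counting is not given.

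Hadhb was the one gene of this group whose libraries did not overlap. Its normalised counts were 347, 337 and 387 in sham and 298, 289 and 336 in I/R libraries, so the highest I/R library lay just under the lowest sham library. The log2 fold change was -0.22 (SE 0.21, limma unadjusted p = 0.32, adjusted p = 0.985), close in size to limma's SE. That SE draws on the spread of genes of similar level, while the within-group SD of Hadhb itself was 0.11 on the log2 scale. The latter rests on 3 libraries per group and can understate the real spread. Its partner Hadha, which starts from the same short gap, had -0.18 with overlapping groups. The ratio of Hadha to Hadhb within a library ran from 3.78 to 4.80, a range of 1.27 times over the 6 libraries, although 61.5% of the 50-base words of the Hadhb transcript also occur in the gene Gm13910, so reads of Hadhb may be split.

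Peroxisomal oxidation and the thioesterases showed the same lack of separation. The peroxisomal thiolase gene Acaa1a had a log2 fold change of 0.06 and Ehhadh, the bifunctional enzyme, -0.06. Both varied 1.96 to 2.16 times between the lowest and highest library. Of the 50-base words of the Acaa1a transcript, 34.0% also occur in the gene Acaa1b, so its reads may be split. Acot1 and Acot2, the cytosolic and mitochondrial thioesterases that release free fatty acid from acyl-CoA, had 0.21 and 0.32. These neighbours share 23.9% of the 50-base words of the Acot1 transcript, so their values are uncertain, and that of Acot2 was -0.089 without sham library 1.

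All 4 acyl-CoA synthetases had negative log2 fold changes, of -0.17 to -0.55, and none passed the test. Acsl1, the synthetase typical of liver and fat, had normalised counts of 911, 483 and 568 in sham and 509.7, 404 and 382 in I/R libraries. The groups overlapped, since I/R library 1 exceeded sham library 2. Its log2 fold change was -0.55 (SE 0.26, limma unadjusted p = 0.056, adjusted p = 0.985) and -0.29 without sham library 1. Acsl4, which prefers arachidonic acid, had -0.33, Acsl5 -0.20 and Acsl3 -0.17.

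One gene, Acsl5, led this family in every library. Per kb, Acsl5 gave 51.2% to 62.9% of the family's summed level in sham and 52.6% to 65.6% in I/R libraries. Acsl4 came next with 20.0% to 27.4% over the 6 libraries, then Acsl1 with 10.2% to 18.2%, and Acsl3 gave 3.59% to 6.42%. The order of the 4 genes was the same in every library. With the length of all exons in place of the principal transcript, the mean share of Acsl1 was 5.73% in place of 12.8%, so its place next to Acsl3 depends on the length used.

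**Figure D2:**
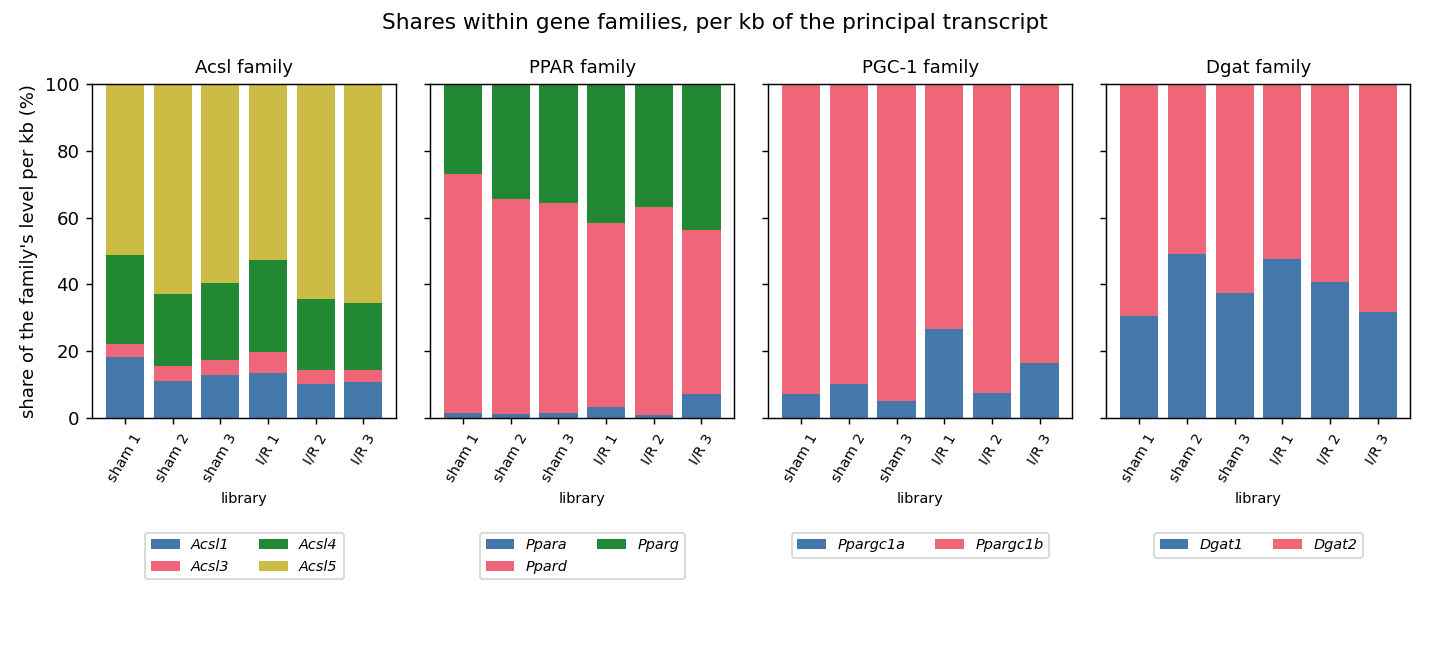
The vertical axis gives the share in percent of each gene in the summed level of its family, per kb of the principal transcript. The horizontal axis gives the 6 libraries. Acsl5 holds over 50% of its family in every library, Ppard 48.9% to 71.4% of the PPAR family, and Ppargc1b 73.4% to 94.8% of the PGC-1 family.

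Fabp4 had the largest log2 fold change in size of the 37 members. This fatty acid binding protein gene, which lies on chromosome 3 from 10204088 to 10208576, is expressed by capillary endothelium, macrophages and adipocytes and is a PPAR gamma target. It had normalised counts of 414, 228 and 151 in sham and 695, 429.8 and 775 in I/R libraries. The groups did not overlap, by little between sham library 1 and I/R library 2. The means were 264 ± 135 and 633 ± 181 (SD, n = 3 each), and the log2 fold change was 1.34 (SE 0.36, 95% interval 0.54 to 2.14, limma unadjusted p = 0.00377, adjusted p = 0.801). Over each library left out in turn it ran from 0.996, without sham library 3, to 1.72, without sham library 1, where the adjusted p was 0.0836.

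Marker genes moved with Fabp4 in part. The monocyte and neutrophil sum was higher in each I/R library, as Fabp4 was. Of its 9 tested genes 7 had a positive log2 fold change, and the median was 0.70. Csf3r, its largest gene in sham with 1144 of 2278 in sham library 1, had a log2 fold change of -0.09. The largest were those of Chil3, at 4.24, and Ccr2, at 2.29. Lymphatic markers were lowest in sham library 3 and highest in I/R libraries 1 and 3, as Fabp4 was, and 8 of 8 had a positive log2 fold change with a median of 0.95. In sham, however, the lymphatic sum was highest in library 2. General endothelial markers summed to 14962 to 22251 in sham and 16533 to 25013 in I/R libraries. Of these 8 genes 6 had a positive log2 fold change, with a median of 0.51. Their sum is mostly Cdh5, at 14172 of 19918 in sham library 1, which had a log2 fold change of -0.21. Liver sinusoidal endothelial markers summed to 11927, 11845 and 11314 in sham and 16641, 11034 and 16742 in I/R libraries. Stellate cell and fibroblast markers summed to 9766, 5220 and 2270 in sham and 7956, 6195 and 8044 in I/R libraries. Both of these lists had the library order of Fabp4 within each group. Relative to the endothelial gene Pecam1 within a library, Fabp4 stood at 0.109 to 0.276 in sham and 0.346 to 0.422 in I/R libraries. These ranges do not overlap. Pecam1 is 1 of the 8 general endothelial markers, and its log2 fold change of 0.14 was under their median of 0.51. Such ratios were not taken for the rest of that list. Relative to the lymphatic gene Prox1, Fabp4 stood at 0.137 to 0.349 and 0.319 to 0.413, which overlap. Of 6 adipocyte markers all were at 0 in at least 1 library and their sum was at most 26.6 normalised counts. The part of cell make-up in the Fabp4 difference was not tested, and these ratios were chosen after the values were seen.

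Fabp1, which binds fatty acids in hepatocytes, varied most among the abundant members. Its normalised counts were 5573, 1256 and 3491 in sham and 1354, 1690.1 and 2891 in I/R libraries, and the groups overlapped. The lowest value of all was in sham library 2 and the highest in sham library 1. I/R over sham gave a log2 fold change of -0.63 (SE 0.47, limma unadjusted p = 0.206, adjusted p = 0.985), which was -0.16 without sham library 1 and -1.23 without sham library 2.

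Hepatocyte markers were lowest in sham library 2 as well, at a sum of 51152, beside 82939 and 88874 in sham libraries 1 and 3 and 74632, 61559 and 59016 in I/R libraries 1 to 3. Of the 14 markers 5 had a positive log2 fold change, with a median of -0.11. Relative to the albumin gene Alb, Fabp1 ranged from 0.0332 to 0.159 over the 6 libraries, or 4.79 times, so it did not follow albumin closely. Relative to the apolipoprotein gene Apoa2 it lay between 0.791 and 0.83 in the sham libraries and between 0.439 and 1.03 in the I/R libraries. The part of hepatocyte RNA in the Fabp1 values was not tested.

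**Figure D3:**
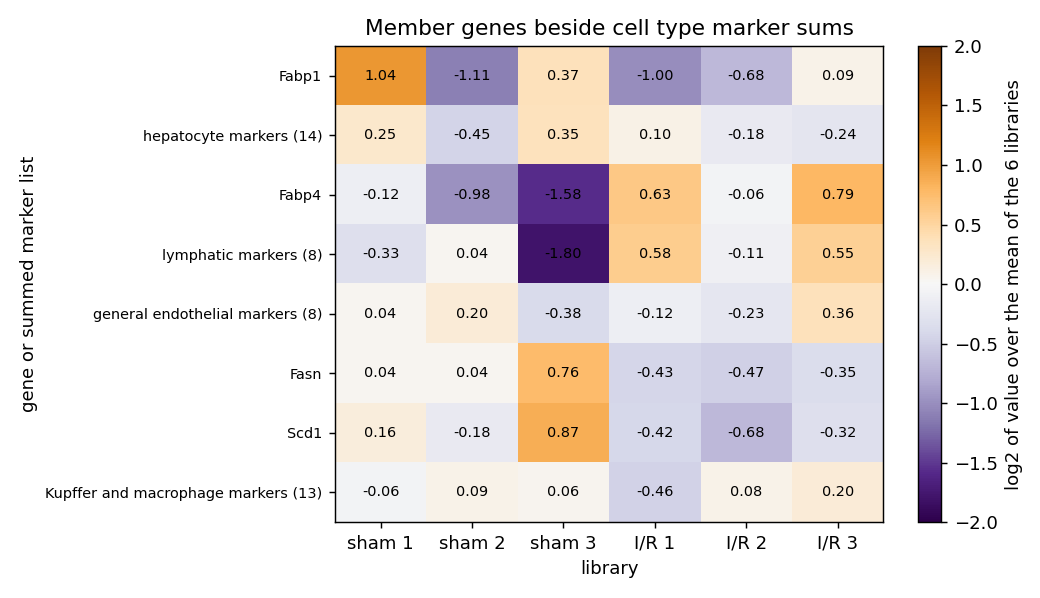
Values of Fabp1, Fabp4, Fasn and Scd1 and summed levels of 4 marker lists (rows) in the 6 libraries (columns), as log2 of the value over the mean of the 6 libraries. In sham library 3 the lymphatic sum is at -1.80 and Fabp4 at -1.58 while Fasn and Scd1 are at 0.76 and 0.87.

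Of the lipid droplet genes Plin2, Pnpla2 and Lipe, the first and second were abundant, and the groups overlapped for each. Plin2 had normalised counts of 5586, 4138 and 3479 in sham and 4184, 5665 and 5641 in I/R libraries. The groups overlapped, as sham library 1 lay near I/R libraries 2 and 3, and I/R library 1 near sham library 2. The log2 fold change was 0.24 (SE 0.21, limma adjusted p = 0.985). It became 0.089 when sham library 3 was left out. Pnpla2, which encodes the lipase that starts triglyceride breakdown, had 0.08. Lipe, the hormone-sensitive lipase gene, had normalised counts of 179 to 391 in sham and 179.6 to 248 in I/R libraries and a log2 fold change of -0.44, which became -0.21 when sham library 3 was left out and -0.77 when sham library 1 was. Dgat1 and Dgat2, whose products complete triglyceride synthesis, had -0.05 and -0.11, with 95% intervals of -0.77 to 0.67 and -0.88 to 0.66.

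Lower values of lipogenic genes in every I/R library were seen for Fasn and Scd1. Fasn, the gene of the multienzyme that builds palmitate, lies on chromosome 11 from 120805846 to 120824547 in GRCm38 and is the gene whose promoter with its CCAAT boxes is printed above. It had normalised counts of 1545, 1539 and 2544 in sham and 1115, 1079 and 1177 in I/R libraries. The I/R libraries lay close together and under all sham libraries. The means were 1876 ± 579 and 1124 ± 49.4 (SD, n = 3 each), 0.599 times the sham mean. On the log2 scale this was -0.70 (SE 0.22, 95% interval -1.17 to -0.22, limma unadjusted p = 0.00836, adjusted p = 0.985).

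Scd1, whose product inserts the double bond into stearate and palmitate, followed Fasn from library to library. It lies on chromosome 19 from 44394455 to 44407879. Its normalised counts were 5971, 4741 and 9781 in sham and 4008, 3336 and 4294 in I/R libraries, again without overlap. On the log2 scale the difference was -0.76 (SE 0.25, 95% interval -1.32 to -0.20, limma unadjusted p = 0.0129, adjusted p = 0.985). The ratio of Scd1 to Fasn within a library ran only from 3.08 to 3.86. Without sham library 3, the highest for both, the log2 fold changes were -0.46 for Fasn and -0.46 for Scd1, with unadjusted p of 0.0391 and 0.0571 in limma, and both genes were still lower in each I/R library than in sham libraries 1 and 2.

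Acaca, which encodes the carboxylase that supplies malonyl-CoA to Fasn, did not share this pattern. Its normalised counts were 432, 633 and 477 in sham and 578, 437 and 480.4 in I/R libraries, with a log2 fold change of -0.03, or 0.02 with equal library totals. A share of 52.6% of the 50-base words of its transcript also occurs in the gene Gm5182, so its reads may be split. Kupffer cell and macrophage markers overlapped between the groups, and relative to the Kupffer cell gene Clec4f both Fasn (0.0283 to 0.0509 in sham, 0.0201 to 0.0339 in I/R libraries) and Scd1 (0.0879 to 0.196 and 0.0711 to 0.122) overlapped too. Lymphatic markers were lowest, and Fasn and Scd1 highest, in sham library 3, and the monocyte and neutrophil sum was higher in each I/R library. The hepatocyte sum was also highest in sham library 3, at 88874, beside 82939 and 51152 in sham libraries 1 and 2. In I/R libraries 1 to 3 it was 74632, 61559 and 59016, whereas Fasn and Scd1 were highest of the I/R libraries in library 3. The part of cell make-up in the lower Fasn and Scd1 values was not tested.

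**Figure D4:**
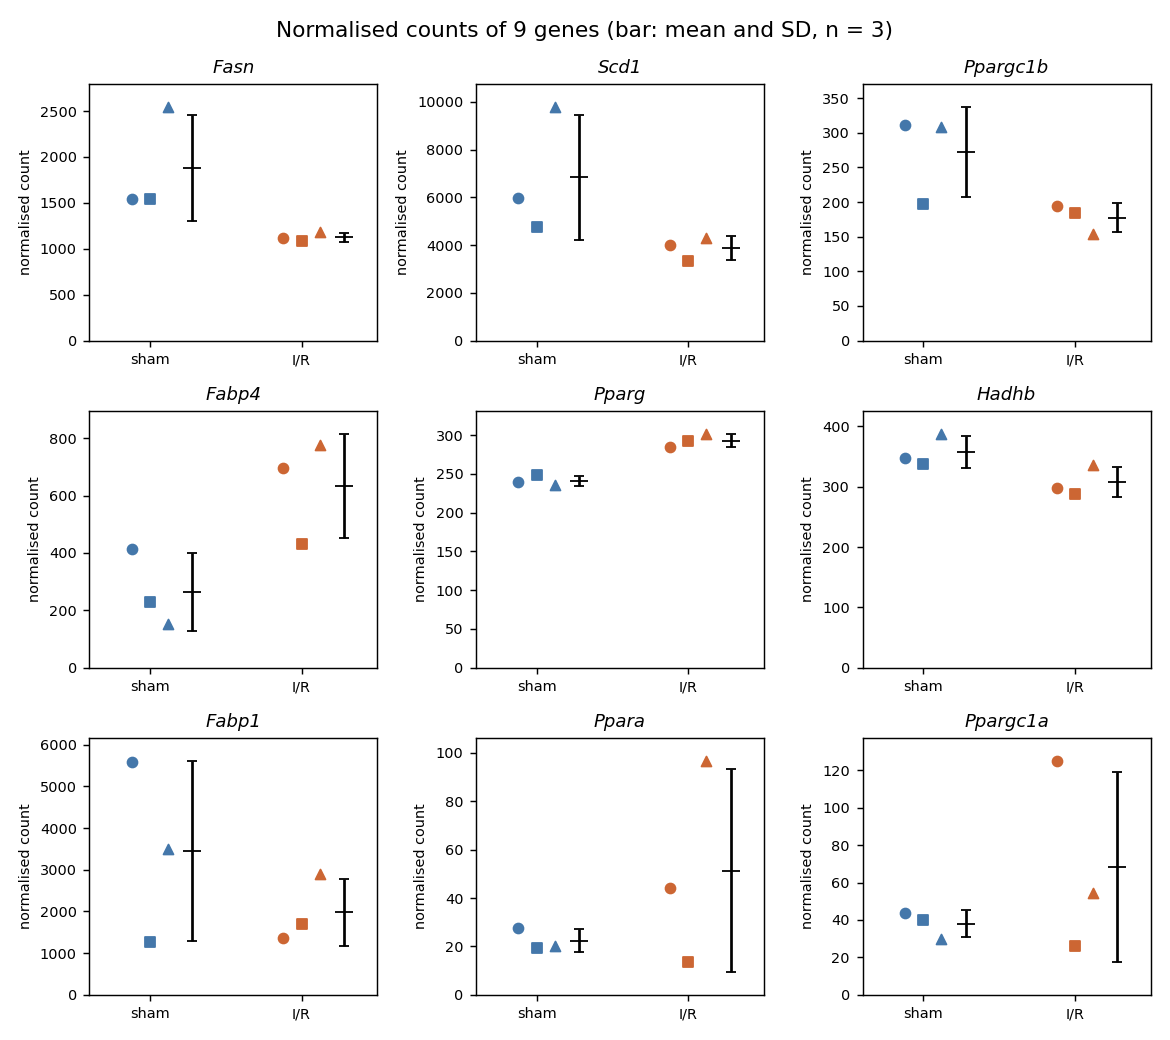
Normalised counts of 9 genes on the vertical axis of each panel, which starts at 0, in 3 sham (blue) and 3 I/R (orange) libraries, with the mean and SD beside each group. Fasn, Scd1, Ppargc1b and Hadhb are lower and Fabp4 and Pparg higher in every I/R library, while Fabp1, Ppara and Ppargc1a overlap.

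The PPAR factors differed in level and in spread. Pparg, the PPAR gamma gene, had the smallest spread within groups of the 37 members, with normalised counts of 239.5, 248 and 235 in sham and 285, 292 and 301 in I/R libraries. All I/R libraries were above all sham libraries, at means of 293 ± 8.39 and 241 ± 6.48 (SD, n = 3 each). The log2 fold change was 0.28 (SE 0.21, limma unadjusted p = 0.22, adjusted p = 0.985), where limma's SE draws on the spread of genes of similar level. The within-group SD of Pparg itself was 0.0398 on the log2 scale. This was the smallest such SD of the 37 members, from 3 libraries per group with 147 to 480 counts each. It can therefore understate the real spread. The log2 fold change of Pparg was 0.26 to 0.30 over each library left out. It was 0.24 with quantile normalisation and 0.33 with equal library totals.

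Ppard, the PPAR delta gene, had normalised counts of 1175, 852 and 773 in sham and 701, 911 and 623 in I/R libraries, with overlap and a log2 fold change of -0.32. Ppara, the PPAR alpha gene that drives fatty acid oxidation in hepatocytes, was low, at 27.7, 19.3 and 20.3 in sham and 44.1, 13.4 and 96.5 in I/R libraries. Its 3 I/R libraries spanned 7.21 times and included both the lowest and the highest of the 6, so its log2 fold change of 0.78 (SE 0.75) is within its spread and was 0.14 without I/R library 3. Per kb, Ppard gave 62.9% to 71.4% of the summed PPAR level in sham and 48.9% to 62.1% in I/R libraries, and Pparg 27.0% to 35.5% and 36.98% to 43.8%. With all exons as the length the mean share of Ppard was 52.5% in place of 60.8%, and that of Pparg 43.0% in place of 36.6%. By that length Pparg lay above Ppard in I/R libraries 1 and 3, so which gene leads there depends on the length used.

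The coactivators of the PGC-1 family, which help PPARs and other receptors to raise mitochondrial genes, split by gene. Ppargc1b had normalised counts of 311, 197 and 308 in sham and 195, 184 and 154 in I/R libraries. The groups did not overlap, though sham library 2 and I/R library 1 nearly met, and the log2 fold change was -0.59 (SE 0.27, limma unadjusted p = 0.0539, adjusted p = 0.985). Ppargc1a had 44.0, 39.9 and 29.9 in sham and 125, 26.2 and 54.5 in I/R libraries, with overlap, and its log2 fold change of 0.58 became 0.015 without I/R library 1. Per kb, Ppargc1b gave 89.7% to 94.8% of their sum in sham and 73.4% to 92.5% in I/R libraries.

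Taking the members as a whole, the groups did not overlap for 2 higher members, Fabp4 and Pparg (5.41%), against 5.11% of all genes tested. They did not overlap for 4 lower members, Fasn, Scd1, Ppargc1b and Hadhb (10.8%), against 4.48% of all genes. Both directions together made 6 members beside 9.59% of all genes. The higher share is near the background and the lower share rests on 4 genes.

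**Figure D5:**
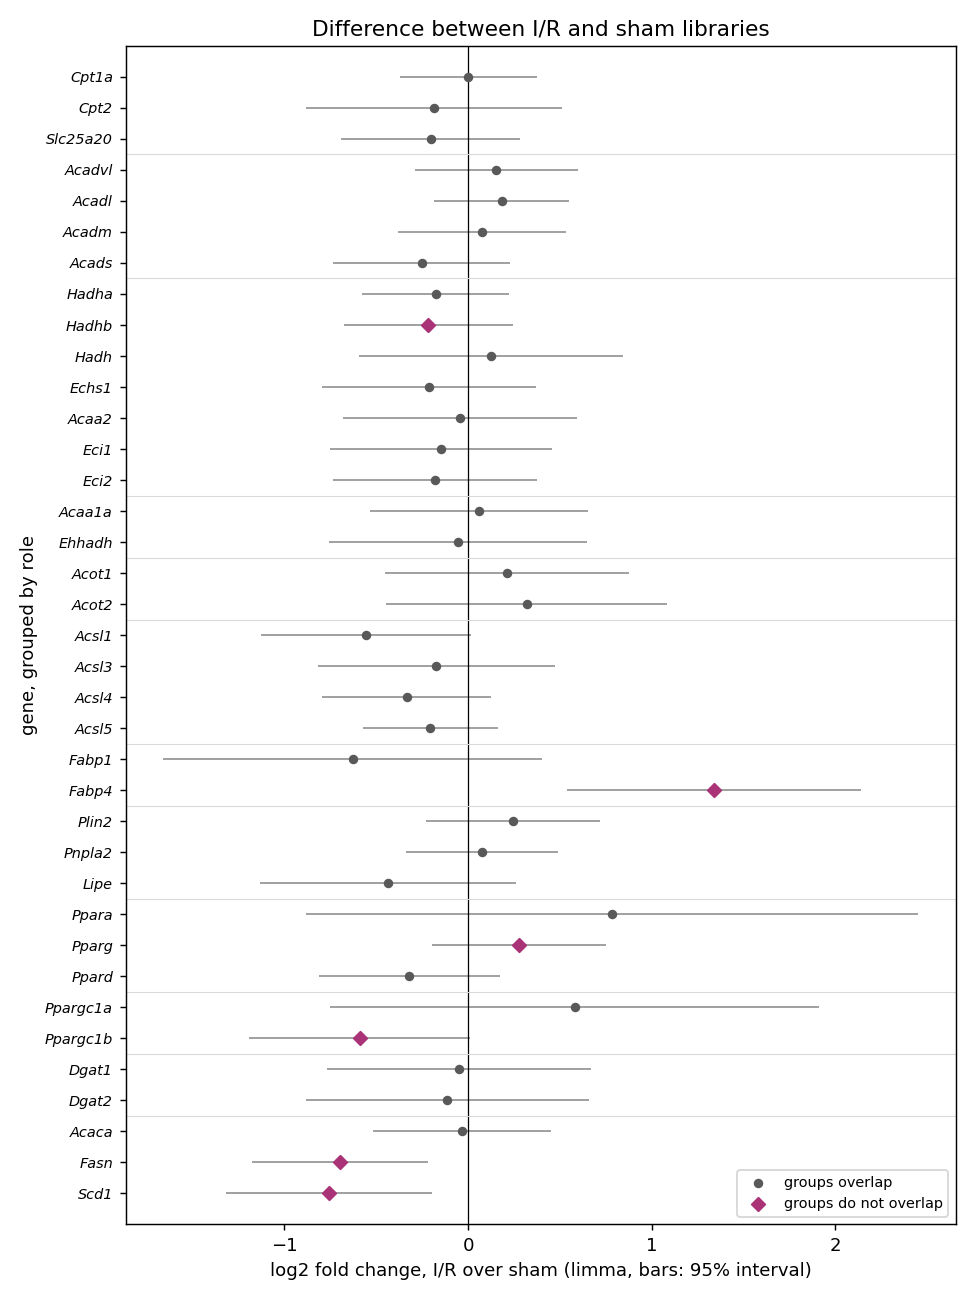
Log2 fold change of I/R over sham on the horizontal axis for the 37 genes, grouped by role on the vertical axis, with bars for the 95% interval from limma. Diamonds mark the 6 genes whose groups do not overlap; the intervals of Fabp4, Fasn and Scd1 are the ones that leave out 0.

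Other genes of the pathway were taken from 5 lists of 115 genes, of which 104 were tested. limma called 0 of the 104 higher and 0 lower over all genes, and at an unadjusted p under 0.05 there were 2 higher and 3 lower, beside 2.96% higher and 1.48% lower of all genes. The list of glycerolipid and fatty acid synthesis had 3 positive and 18 negative members of 21 with a median log2 fold change of -0.20. Its Thrsp, a lipogenic gene of liver and fat, had normalised counts of 1361, 466 and 1203 in sham and 298, 259 and 679 in I/R libraries (log2 fold change -1.29, SE 0.44, limma adjusted p = 0.985), with overlap through sham library 2. Fads1, a desaturase gene of polyunsaturated fatty acids, had 673, 728 and 866 in sham and 566, 513 and 580.0 in I/R libraries, without overlap (log2 fold change -0.44, SE 0.19). Srebf1, the gene of SREBP-1, had -0.21 and Acly, the citrate lyase gene that feeds Fasn with acetyl-CoA, -0.38, both with overlapping groups and both named after their values were seen.

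In the list of PPAR partners and target genes, 5 of 16 tested members were positive and 11 negative, with a median of -0.20. Cyp4a10, a fatty acid hydroxylase gene of hepatocytes and a PPAR alpha target, had normalised counts of 94.5, 29.9 and 106 in sham and 30.4, 3.65 and 6.23 in I/R libraries (log2 fold change -2.74, SE 0.87, limma adjusted p = 0.985). I/R library 1 lay just above sham library 2, the library with the lowest hepatocyte sum, at 51152. I/R libraries 2 and 3 had higher hepatocyte sums, 61559 and 59016, but lower Cyp4a10 than sham library 2. The I/R values rest on 20, 6 and 8 counts, and the part of hepatocyte RNA was not tested. Rxrg, a partner receptor of PPARs, was listed at 0 in sham libraries 1 and 3 and had 22, 13 and 17 counts in the I/R libraries, too few to read a direction.

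The list of fatty acid uptake, activation and binding had 13 positive and 13 negative members and a median of 0.00. Acot7, a thioesterase gene, had normalised counts of 124, 134 and 65.7 in sham and 256, 207 and 241 in I/R libraries (log2 fold change 1.17, SE 0.33, limma adjusted p = 0.825). Fabp5, a relative of Fabp4 found in macrophages and endothelium, had 735, 371 and 626 in sham and 978, 1777 and 922 in I/R libraries (log2 fold change 1.08, SE 0.31, adjusted p = 0.874). For both genes the lowest I/R library lay above the highest sham library. The other beta-oxidation and ketone body genes had 14 positive and 13 negative members of 27 with a median of 0.01, and the lipid droplet and lipolysis genes 7 and 7 of 14 with a median of -0.02.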

How the data were processed

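The authors deposited normalised counts per gene, a signal scaled by 1 factor per library. Per the submitters' processing notes, the tools were DESeq2 1.22.1, StringTie 1.3.3b, HISAT2 2.1.0 and Trim Galore 0.5.0 and the build mm10. What each did, how reads were counted and whether strand was used is not given there. In every library 100% of the values were whole multiples, to within 0.01, of the smallest nonzero value, and these multiples were taken as recovered counts. The counts may derive from coverage. The table held protein coding genes only.

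From the deposited values, limma 3.58.1 in R 4.3.3 compared 3 I/R with 3 sham libraries on log2(value + 1) with an intensity trend, two-sided, with Benjamini-Hochberg adjustment over the 13434 genes with a mean of at least 10 and a threshold of 0.05. The added 1 draws fold changes of low genes towards 0. edgeR 4.0.16 and DESeq2 1.42.0 on the recovered counts, other scalings, pseudocounts and filters, a replicate term and leaving out each library were alternatives. Transcript lengths and coordinates are from GENCODE M21 on GRCm38, matched without version numbers.

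Members and lists were chosen with earlier results of these data known. Full values are given for members with an unadjusted p under 0.05 or groups that did not overlap, a mean of at least 5000, or a role as PPAR factor, coactivator, Cpt1a, Fabp1, Fabp4 or Plin2. Pathway genes named are the 3 per direction with the smallest p, others being marked. Values of Acsl1, Acaca and Lipe, and all ratios between genes, were added after they were seen.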

Additional observations from a re-analysis of the deposited data

How the results depend on the processing

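Of the 17 alternatives run, each left 0 of the 37 members called in either direction, and the lowest adjusted p of a member was 0.0836. Over all genes, limma called 4 higher and 0 lower. The count of higher calls was 0 with the replicate block, 1 with a mean of at least 50, 0 without the trend, 1 in edgeR and 35 in DESeq2, and 0 to 20 with 1 library left out, 20 being without sham library 1 and 0 without each of the other libraries. The count of lower calls was 7 in DESeq2 and 0 to 2 with 1 library left out, 2 being without sham library 1. Members lower at an unadjusted p under 0.05 numbered 2 in limma, 1 without the trend, 4 in edgeR and 1 to 5 with 1 library left out. The causes were not tested.

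Same-numbered sham and I/R libraries had correlations of -0.0204, -0.21 and -0.00138 in their deviations from the group means. No pairing by number showed in these values, but with 3 libraries per group they cannot decide whether same-numbered libraries were handled together. The labels do not say. With the replicate block 0 members were called, as without it. With all 6 libraries kept, 5 of 406 member fold changes turned sign, all near 0. They were Acaa2 at 0.012 with equal library totals, 0.014 in edgeR and 0.0093 in DESeq2, and Acaca at 0.021 and Dgat1 at 0.0055 with equal library totals. With 1 library left out, 25 of 222 turned sign, in 14 members, and the log2 fold changes ran as follows: Acaa1a -0.12 to 0.36, Acaa2 -0.33 to 0.25, Acaca -0.15 to 0.13, Acadm -0.064 to 0.19, Acot2 -0.089 to 0.56, Acsl3 -0.41 to 0.057, Cpt1a -0.10 to 0.066, Cpt2 -0.50 to 0.08, Dgat1 -0.18 to 0.16, Dgat2 -0.52 to 0.14, Eci2 -0.33 to 0.024, Ehhadh -0.38 to 0.18, Hadh -0.18 to 0.42, Pnpla2 -0.0604 to 0.18. The other 23 members kept their sign, among them Fasn, Scd1, Fabp4, Pparg and Ppargc1b. Equal library totals moved the median over all genes from 0.02 to 0.07. Counting error was widest for Ppara, with 17 counts in its lowest library, but its I/R counts of 29, 22 and 124 also differed from each other, and how much of its spread comes from depth was not tested.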
